A study of Homo sapiens with 6 samples.

Results

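The genes of the cytosolic ribosomal proteins were followed in 6 poly(A)-enriched RNA-seq libraries of KMM1, a human multiple myeloma cell line. They were chosen by name: RPL or RPS, a number and at most 1 of the letters A, X or L, together with RPLP0, RPLP1, RPLP2 and RPSA, without RPS27L, the RPS6K kinases and genes named as pseudogenes. The names gave 82 genes of 57290 in the annotation used by the authors, 49 of the large and 33 of the small subunit, with 762 annotated transcripts. The 82 include the paralogs RPL3L, RPL10L and RPL39L, and also RPS10L, whose single-exon transcript is typed as a processed pseudogene in GENCODE release 29.

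The TAZ group held 3 libraries of KMM1 cells transduced with a lentivirus that expresses TAZ, the transcriptional coactivator encoded by WWTR1. The WPI group held 3 libraries of KMM1 cells transduced with the empty lentiviral vector. All 6 libraries therefore came from 1 cell line after viral transduction, with RNA taken on day 4, and the design sets TAZ against empty vector. The labels do not say whether the 3 libraries of a group came from separate cultures, so each p-value measures the spread between these libraries, which may be technical. Levels are in TPM, a unit relative to the library total and corrected for transcript length. Values of a gene's transcripts were summed, and libraries were brought to a common scale with the median of ratios. A difference is the TAZ mean minus the WPI mean of log2(scaled TPM + 1), given with its standard error (SE). It was tested with limma over the 19390 genes that averaged 1 TPM or more, and a gene passed at a Benjamini-Hochberg adjusted p under 0.05.

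Each ribosome carries a single copy of nearly every ribosomal protein, so the family is known for being made in balanced amounts, and plasma cells, which secrete antibody, are rich in ribosomes. The mRNAs of the family typically start with a C followed by an unbroken run of pyrimidines, the terminal oligopyrimidine tract, through which the mTOR kinase and the RNA-binding protein LARP1 set their translation and stability. The family is also known for its many processed pseudogenes, retrotransposed copies of spliced mRNA that are close in sequence to the parent gene.

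The start sites of the reported members that were among the 8 with the largest difference in either direction and had an entry, and of RPS9, are shown here because the tract is the feature that the family shares. Each line holds 10 bases before and 20 bases from the annotated start on the strand given, 5′ to 3′, from RefSeq on GRCh38.p14, and capitals mark the pyrimidine run at the start (a C followed by at least 4 pyrimidines, C or T).
RPS19 (chr19:41860245-41860274, plus strand): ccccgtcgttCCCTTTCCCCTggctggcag
RPS14 (chr5:150449720-150449749, minus strand): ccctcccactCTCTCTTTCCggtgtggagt
RPL36A (chrX:101391001-101391030, plus strand): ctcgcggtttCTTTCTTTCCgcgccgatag
RPL26 (chr17:8383174-8383203, minus strand): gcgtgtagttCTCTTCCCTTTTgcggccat
RPS9 (chr19:54200848-54200877, plus strand): gcttccgcgcCTCTTTCTCagtgaccgggt
RPL29 (chr3:51995876-51995905, minus strand): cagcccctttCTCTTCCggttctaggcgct
RPL38 (chr17:74203668-74203697, plus strand): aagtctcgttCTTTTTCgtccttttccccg
RPS10 (chr6:34426050-34426079, minus strand): catgctccttCCTTTCCagccccggtaccg
RPS16 (chr19:39435930-39435959, minus strand): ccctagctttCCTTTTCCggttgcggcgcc
RPS29 (chr14:49598691-49598720, minus strand): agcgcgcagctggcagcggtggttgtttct
RPL17 (chr18:49492446-49492475, minus strand): ttccctaagcagcctgaggtgagtgtttct
RPL32 (chr3:12841546-12841575, minus strand): acgacccatcagcccttgcgcgccaccgtc
RPS28 (chr19:8321486-8321515, plus strand): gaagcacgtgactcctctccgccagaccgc
The first 9 begin with the run at the start shown. RPS29, RPL17, RPL32 and RPS28 have no such run, at any of 3 listed starts for RPL32, and a second listed start of RPS19 has none. Of the 63 members matched by symbol, 46 had the run at a listed start (73.0%), against 5.14% of 27305 gene symbols in the same table. The share was 28 of 39 in the large and 18 of 24 in the small subunit, the median run was 8 bases and the longest, in RPL39, was 19 bases. The 46 members with the run had a median log2 difference of -0.03, and the 17 without it had a median of -0.34; both are descriptions, since annotated starts can miss the start used.

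Library depth, recovered from the deposited coverage and FPKM, was 1130.4 to 1608 megabases of aligned sequence in TAZ libraries and 1099.95 to 2033 megabases in WPI libraries, with 73.6% to 75.9% of it on annotated transcripts. WWTR1 had 365, 138 and 145 TPM in TAZ libraries, against 2.35, 1.21 and 1.395 TPM in WPI libraries, a log2 difference of 6.22 ± 0.41 (SE; limma adjusted p = 0.000835). Of 8 myeloma and plasma cell markers, 3 were lower in TAZ libraries, SDC1, IRF4 and SLAMF7, and the 8 summed to 1281, 1101 and 1146 TPM in TAZ libraries against 1963, 1182 and 1912 TPM in WPI libraries. Of 5 epithelial markers 4 were tested, and KRT8 and KRT18 were higher, while CDH1 did not pass and its TAZ libraries lay below the WPI libraries (-0.94, limma adjusted p = 0.161), with sums over the 5 of 2293, 957 and 1022 TPM in TAZ libraries against 194, 292 and 322 TPM in WPI libraries. Of 6 fibroblast markers 3 were tested, and DCN and LUM were higher, with sums of 42.8, 44.7 and 37.8 TPM in TAZ libraries against 2.14, 2.43 and 2.83 TPM in WPI libraries. The 6 T and NK cell markers summed to at most 1.57 TPM in any library, and none was tested. Of 6 myeloid markers only CD14 was tested, and it was lower (-1.05); the 6 summed to 2.05, 1.99 and 1.95 TPM in TAZ libraries against 5.21, 5.09 and 5.87 TPM in WPI libraries. CD68 was at 0 in all 6 libraries. The part of these shifts in the ribosomal protein values was not tested.

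No ribosomal protein gene passed the test between TAZ and WPI cells. Of the 81 members tested, 0 passed in limma, against 3.21% of all tested genes (2.25% higher and 0.964% lower in TAZ cells). The remaining member, RPL3L, a paralog known from muscle, averaged 0.504 ± 0.483 TPM in TAZ libraries and 0.784 ± 0.366 TPM in WPI libraries. At an unadjusted p under 0.05 there were 8 members (9.88%), RPL23A, RPL32, RPL36A, RPL38, RPL7, RPS19 and RPS9 among them, against 18% of all tested genes. The lowest adjusted p was 0.0751, for RPS9. TPM without scaling between libraries let 2 members pass, RPS19 among them. For 11 members the groups did not overlap, 4 higher and 7 lower in TAZ cells (13.6%), against 24.9% of all tested genes (10.1% higher and 14.8% lower) and 30.4% of genes averaging 100 TPM or more. Both shares of members lay below those of all genes. Because bulk RNA was measured, fewer cells with a transcript and less of it per cell cannot be told apart.

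**Figure D1:**
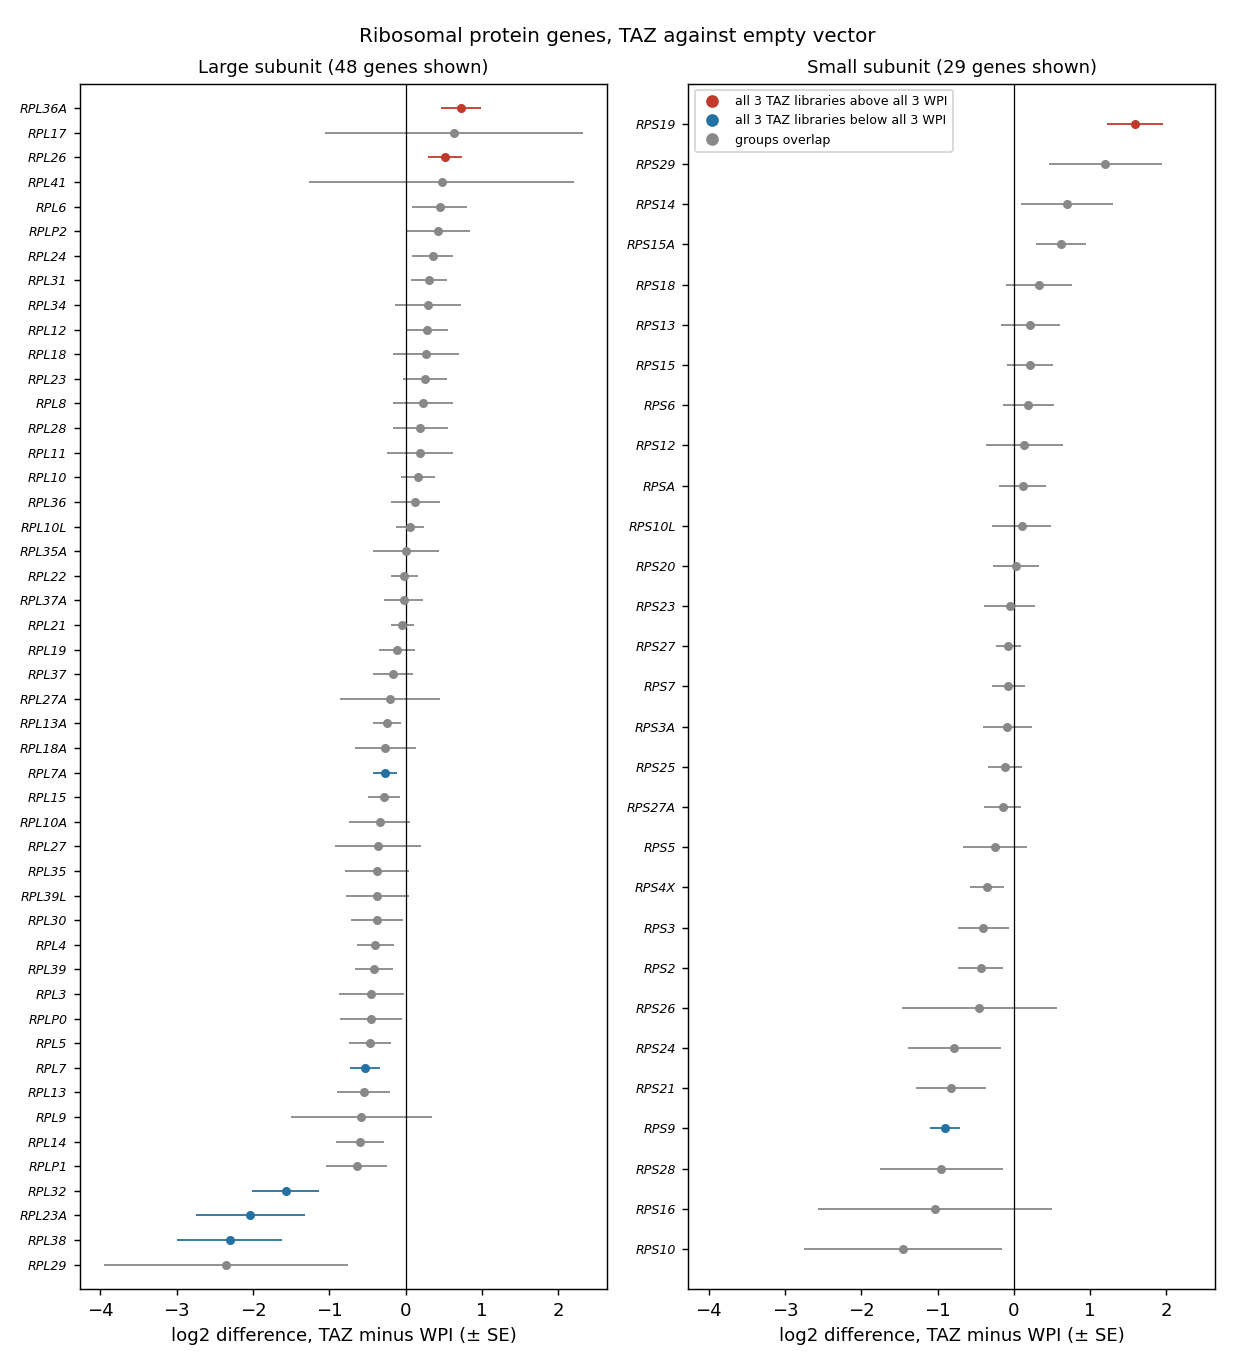
Log2 difference (TAZ minus WPI, x axis, bars ± SE, n = 3 libraries each) for 48 large and 29 small subunit genes tested, ordered by size. Red points are the 3 genes whose TAZ libraries all lie above the WPI libraries, blue points the 6 whose TAZ libraries all lie below, and the estimates run from -2.35 for RPL29 to 1.59 for RPS19.

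The members lay on both sides of 0, with 33 above and 48 below. Their median log2 difference was -0.12, with the middle members between -0.43 and 0.22 (lower and upper quartile). It was -0.19 in the large and -0.07 in the small subunit, beside -0.05 over all tested genes. Among genes averaging 100 TPM or more, the 61 members had a median of -0.21 and all 1296 genes a median of -0.25. The direction of the family's median followed the scaling: it was 0.15 without scaling, where the median of all genes was 0.17, and 0.09 with upper quartile scaling, where the median of all genes was 0.12. It was 0.03 with ratios taken over abundant genes outside the family, where the median of all genes was 0.07. Leaving out WPI library 3 gave 0.04, and leaving out WPI library 1 gave -0.32. The 81 members varied more between libraries of 1 group than most genes did, with a median within-group SD of 0.49 on the log2 scale against 0.30 over all tested genes. In 65 of the 81 the SD lay above the median of genes averaging 20 TPM or more.

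Summed over the family, TAZ cells held 39866, 29885 and 27717 TPM in libraries 1, 2 and 3, and WPI cells held 28647, 37956 and 49547 TPM. The groups overlapped. The sum made up 3.83, 3.57 and 3.41% of all TPM in TAZ libraries and 2.85, 3.58 and 4.32% in WPI libraries, a mean of 3.60% ± 0.215 in TAZ cells and 3.59% ± 0.739 in WPI cells (SD, n = 3 each). WPI cells held both extremes: WPI library 3 was the highest of the 6 libraries for 48 members, and WPI library 1 was the lowest for 37. The large subunit genes summed to 25734, 17328 and 15841 TPM in TAZ libraries and 19088, 23240.3 and 28564 TPM in WPI libraries. The small subunit genes summed to 14133, 12557 and 11876 TPM in TAZ libraries and 9558, 14716 and 20983 TPM in WPI libraries. The log2 ratio of large to small was 0.86, 0.46 and 0.42 in TAZ libraries and 1.00, 0.66 and 0.45 in WPI libraries, or 0.58 ± 0.246 in TAZ cells against 0.70 ± 0.279 in WPI cells (SD, n = 3 each), a difference of -0.12 that is smaller than either SD. Leaving out WPI library 1 turned it to 0.03. The ratio of the subunits' median genes, in place of their sums, did not overlap: its log2 was -0.21, -0.52 and -0.57 in TAZ libraries and 0.82, -0.0006 and -0.07 in WPI libraries, or -0.44 ± 0.195 in TAZ cells against 0.25 ± 0.497 in WPI cells (SD, n = 3 each), a difference of -0.69 that was -0.40 without WPI library 1. Since each ratio is a score over chosen genes, no p is given.

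**Figure D2:**
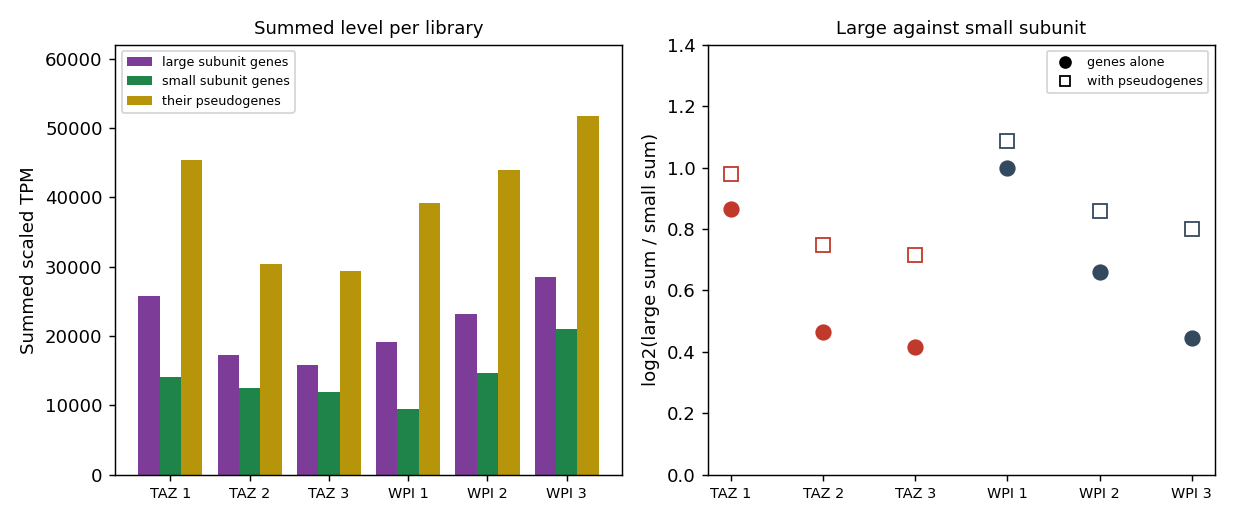
Left, summed scaled TPM of the large subunit genes, the small subunit genes and their pseudogenes in each library, with the 3 TAZ libraries left of the 3 WPI libraries. Right, the log2 ratio of the large to the small subunit sum in each library, from the genes alone (filled circles) and with the pseudogenes added (open squares); the ranges of the groups overlap in both.

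Of the members higher in TAZ cells, RPS19 differed most. RPS19, a small subunit protein needed for maturation of the small subunit and the gene most often mutated in Diamond-Blackfan anaemia, had 486, 239.9 and 268 TPM in the TAZ libraries, against 81.9, 87.1 and 159 TPM in the WPI libraries. All 3 TAZ values lay above all 3 WPI values, with a log2 difference of 1.59 ± 0.37 (SE, n = 3 each; limma adjusted p = 0.0874). It passed when WPI library 3 was left out (1.88, limma adjusted p = 0.0496). That library held the highest WPI value of RPS19, so leaving it out favours a pass and is no separate support. Its 3 pseudogenes ran the other way, with 855, 256 and 248 TPM in TAZ libraries against 958, 678 and 828 TPM in WPI libraries. RPS19P1, a pseudogene on chromosome 20, held most of that, with 567, 161 and 158 TPM in TAZ libraries against 585, 421 and 565 TPM in WPI libraries. With the pseudogenes added, RPS19 had a log2 difference of -0.39 ± 0.41, of opposite sign (adjusted p = 0.640).

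RPL36A, a large subunit protein encoded on the X chromosome, had 59.97, 71.7 and 59.5 TPM in TAZ libraries and 29.999, 55.5 and 32.9 TPM in WPI libraries (0.72 ± 0.26, limma adjusted p = 0.227). RPL26, a protein near the exit of the nascent peptide tunnel, had 909, 861 and 785 TPM in TAZ libraries and 549, 783 and 486 TPM in WPI libraries (0.52 ± 0.23, adjusted p = 0.294). Both had all TAZ values above all WPI values by a narrow margin, RPL26 at 785 TPM in the lowest TAZ library and 783 TPM in the highest WPI library. RPS29, a zinc-binding small subunit protein, had 761, 1008 and 1183 TPM in TAZ libraries and 124, 583 and 1029 TPM in WPI libraries (1.20 ± 0.74, adjusted p = 0.439). Its groups overlapped, and its difference was 0.32 without WPI library 1 and 1.83 without WPI library 3. RPS14, whose loss is known from the 5q deletion syndrome, showed the same single low library, with 143, 152 and 205 TPM in TAZ libraries and 37.4, 128 and 213 TPM in WPI libraries (0.70 ± 0.60, adjusted p = 0.573). Without WPI library 1 the RPS14 difference was -0.0004. RPS15A, a small subunit protein, had 69.3, 132 and 100.0 TPM in TAZ libraries and 43.4, 76.7 and 75.2 TPM in WPI libraries, with overlap (0.62 ± 0.32, adjusted p = 0.370). Its difference was 0.35 without WPI library 1 and 0.39 without TAZ library 2.

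Among the members lower in TAZ cells, RPS9 had the lowest adjusted p. RPS9, a small subunit protein involved in decoding fidelity, had 149.9, 164 and 154 TPM in the TAZ libraries, against 329.9, 229 and 328 TPM in the WPI libraries. The groups did not overlap, and the difference was -0.90 ± 0.20 (SE, n = 3 each; limma adjusted p = 0.0751), between -1.07 and -0.81 when each library was left out in turn. RPS9 had 1 pseudogene with 3.15% of their joint TPM, and the difference with it added was -0.85 ± 0.20 (adjusted p = 0.0870).

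RPL38, a large subunit protein known in mice for its role in the translation of Hox mRNAs, had 68.5, 40.4 and 290.5 TPM in TAZ libraries and 356, 571 and 496 TPM in WPI libraries (-2.31 ± 0.69, limma adjusted p = 0.164). TAZ library 3 stood nearest to the WPI values, and without it RPL38 was lower and passed the test (-3.13, limma adjusted p = 0.0166). Leaving out the library nearest to the other group favours a pass, so this is no separate support. RPL23A, the docking site of the signal recognition particle at the tunnel exit, had 300.3, 49.7 and 312 TPM in TAZ libraries and 710.2, 884 and 522 TPM in WPI libraries (-2.03 ± 0.71, adjusted p = 0.218). TAZ library 2 was the low one, and without it the difference was -1.17. Its pseudogene RPL23AP2 was recorded at 31.4, 16.7 and 15.4 TPM in TAZ libraries and 1022, 20.4 and 1197 TPM in WPI libraries, high in WPI libraries 1 and 3 alone. RPL32, a large subunit protein, had 31.9, 94.5 and 84.8 TPM in TAZ libraries and 252, 152 and 183 TPM in WPI libraries (-1.57 ± 0.44, adjusted p = 0.138).

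RPL7A and RPL7 were lower without overlap by smaller amounts. Of the 1296 genes averaging 100 TPM or more, 23% were lower without overlap, and the median difference over all 1296 was -0.25. RPL7A, a large subunit protein, had 556, 558 and 527 TPM in TAZ libraries and 618, 664 and 699 TPM in WPI libraries (-0.27 ± 0.16, limma adjusted p = 0.415). RPL7, a large subunit protein, had 116, 90.0 and 89.1 TPM in TAZ libraries and 121, 159 and 149.5 TPM in WPI libraries (-0.53 ± 0.19, adjusted p = 0.229). In RPL7A the libraries of a group lay close together. In RPL7 the highest TAZ library, at 116 TPM, lay close to the lowest WPI library, at 121 TPM. With its pseudogenes added, RPL7 had 225, 194 and 212 TPM in TAZ libraries and 174, 241 and 282 TPM in WPI libraries. The difference was then -0.12, with overlap. RPS28, a small subunit protein, had 40.7, 3.91 and 36.1 TPM in TAZ libraries and 44.0, 39.2 and 29.2 TPM in WPI libraries (-0.95 ± 0.81, adjusted p = 0.567), with TAZ library 2 far below the other 5. Without that library the RPS28 difference was 0.05. The 65 tested members outside the 8 highest and the 8 lowest differences lay between -0.90 and 0.47.

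In 5 members the libraries of 1 group differed by 10-fold or more, RPL17, RPL29, RPL41, RPS10 and RPS16. That is 6.25% of the 80 members averaging 20 TPM or more, against 3.26% of all genes at that level. RPL29, a heparin-binding large subunit protein, had 2199, 995 and 21.9 TPM in TAZ libraries and 1666, 1771 and 2263 TPM in WPI libraries, and its difference of -2.35 ± 1.60 (limma adjusted p = 0.477) was -0.35 without TAZ library 3 and -3.65 without TAZ library 1. RPS16, whose tail reaches the peptidyl tRNA, had 831, 941 and 38.4 TPM in TAZ libraries and 114, 1135 and 2027 TPM in WPI libraries, with 1 low library in each group (-1.03 ± 1.54, adjusted p = 0.751), and without TAZ library 3 its difference was 0.46. RPL41, a very short peptide of the large subunit, had 891, 634 and 116 TPM in TAZ libraries and 1262, 1118 and 16.7 TPM in WPI libraries (0.47 ± 1.74, adjusted p = 0.909). None of the 3 had groups apart from each other.

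RPL17 and RPS10 each share their locus with a read-through gene, a transcript unit that joins them to the next gene. RPL17, at the tunnel exit, had 492, 16.5 and 27.9 TPM in TAZ libraries and 322, 7.69 and 22.7 TPM in WPI libraries (0.64 ± 1.69, limma adjusted p = 0.868), high in library 1 of each group. Without TAZ library 1 the difference was -0.85, and without WPI library 2 it was -0.48. The read-through gene of RPL17 was at 0, 104 and 163 TPM in TAZ libraries and 0, 87.7 and 138 TPM in WPI libraries, 0 in exactly the libraries where RPL17 was high. RPS10, on the beak of the small subunit, had 5.17, 3.41 and 43.6 TPM in TAZ libraries and 53.8, 88.3 and 4.06 TPM in WPI libraries (-1.45 ± 1.296, adjusted p = 0.587). The difference was -2.73 without WPI library 3, -2.48 without TAZ library 3 and -0.65 without WPI library 2. Its read-through gene RPS10-NUDT3 held 692, 531 and 531 TPM in TAZ libraries and 380.5, 629 and 635 TPM in WPI libraries. With pseudogenes and read-through genes added, the RPS10 difference was 0.02.

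**Figure D3:**
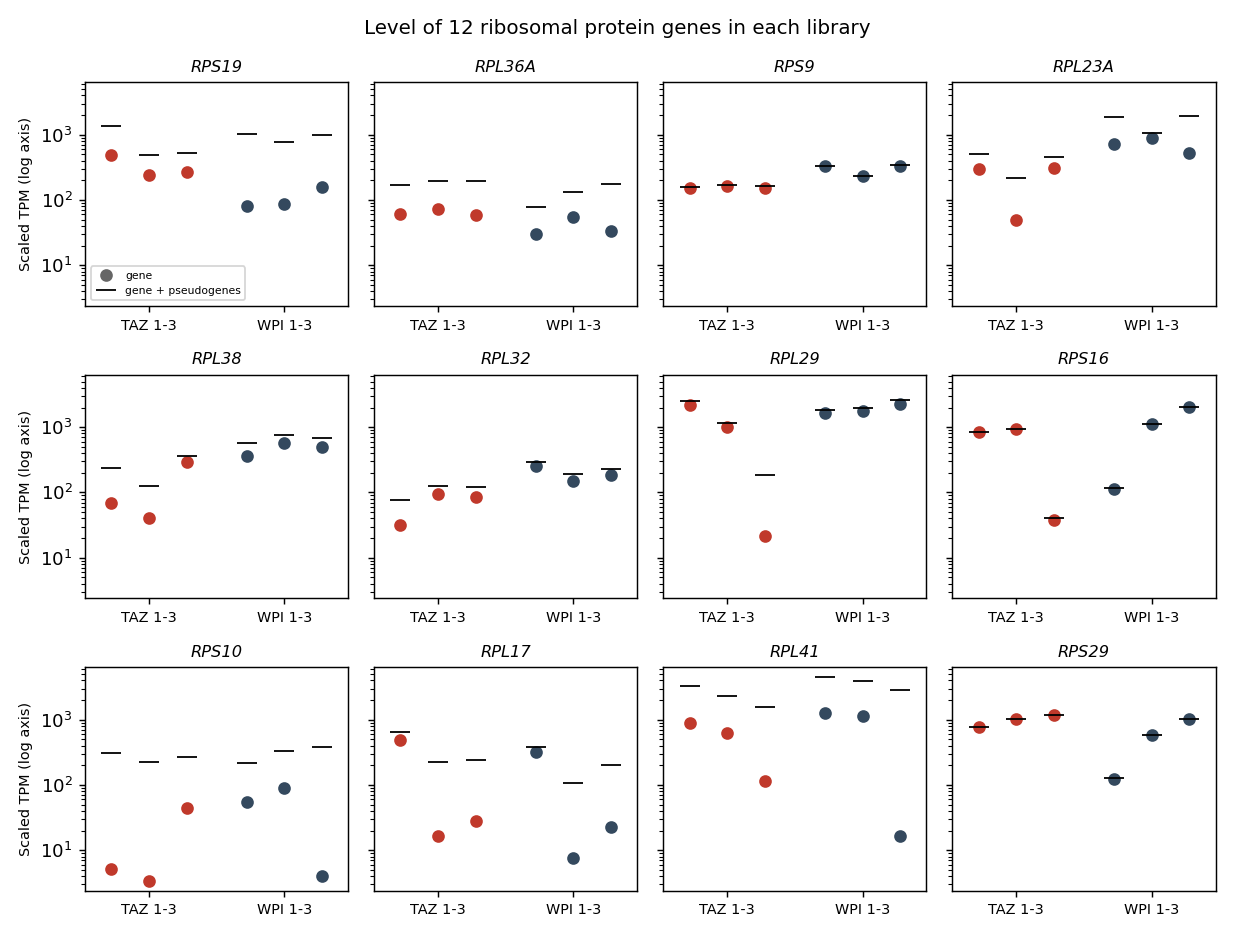
Scaled TPM (log axis) of 12 ribosomal protein genes in each library, TAZ libraries 1 to 3 in red on the left and WPI libraries 1 to 3 in dark blue on the right of each panel, with a black dash for the gene and its pseudogenes together. RPS19, RPL36A, RPS9, RPL23A, RPL38 and RPL32 have groups that do not overlap, while RPL29, RPS16, RPS10, RPL17 and RPL41 have libraries of 1 group that lie 10-fold or more apart.

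By role on the ribosome, no member of any group passed, against 3.21% of all tested genes. An unadjusted p under 0.05 in limma was found for 18% of all tested genes. Of the 3 stalk proteins, which recruit the translational GTPases, 0 passed in limma, and 0 had an unadjusted p under 0.05. RPLP1 averaged 327 ± 28.4 TPM in TAZ libraries and 562 ± 273 TPM in WPI libraries (SD, n = 3 each; -0.64), RPLP0 1526 ± 774 TPM in TAZ libraries and 1957 ± 476 TPM in WPI libraries (-0.45) and RPLP2 1176 ± 55.5 TPM in TAZ libraries and 970.4 ± 498 TPM in WPI libraries (0.43). RPL5 and RPL11, which form a particle with the 5S ribosomal RNA and restrain MDM2 when free, did not pass either. RPL5 averaged 262 ± 59.2 TPM in TAZ libraries and 364 ± 103 TPM in WPI libraries (-0.46), and RPL11 averaged 935 ± 139.9 TPM in TAZ libraries and 904 ± 437 TPM in WPI libraries (0.19). Of 7 tunnel exit proteins 0 passed, 1 had an unadjusted p under 0.05 (RPL23A), and their median log2 difference was -0.12.

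Of 17 genes mutated in Diamond-Blackfan anaemia, an inherited failure of red cell production, 0 passed in limma and 2 had an unadjusted p under 0.05, RPS19 among them (11.8%, against 18% of all tested genes). In 3 of the 17 the TAZ libraries lay above the WPI libraries without overlap, RPS19 and RPL26 among them, and in 0 below, against 10.1% of all tested genes above and 14.8% below. The median of the 17 was -0.07. Of 8 proteins along the mRNA path of the small subunit 0 passed, with 0 at an unadjusted p under 0.05 and a median of -0.07. A list of ubiquitin or ubiquitin-like fusions and the scaffold RACK1 held 4 genes. Of these 4, 0 passed in limma and 0 had an unadjusted p under 0.05, against 3.21% and 18% of all tested genes. RPS27A, made as a fusion to ubiquitin, averaged 294 ± 57.5 TPM in TAZ libraries and 327 ± 68.4 TPM in WPI libraries (-0.15). FAU, a ubiquitin-like fusion, averaged 228 ± 49.7 TPM in TAZ libraries and 306 ± 79.9 TPM in WPI libraries (-0.41). GNB2L1, the scaffold RACK1 on the small subunit, averaged 1024 ± 62.9 TPM in TAZ libraries and 1236 ± 704 TPM in WPI libraries (-0.08).

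The levels of the members spread over a wide range. RPLP0 was the most abundant, with 1526 ± 774 TPM in TAZ libraries and 1957 ± 476 TPM in WPI libraries (SD, n = 3 each), and RPL8, RPL29 and RPS6 were also among the 5 most abundant. RPL8, a protein near the peptidyl transferase centre, averaged 1579 ± 497 TPM in TAZ libraries and 1411 ± 711 TPM in WPI libraries. RPS6, the substrate of S6 kinase, averaged 1212 ± 135 TPM in TAZ libraries and 1122 ± 422 TPM in WPI libraries. The order of these 4 was not tested, and their means ± SD overlap. At the other end, RPL3L and RPL10L, a testis paralog, averaged about 1 TPM or less. RPL37 averaged 25.9 ± 7.86 TPM in TAZ libraries and 28.5 ± 4.55 TPM in WPI libraries, RPS26 24.4 ± 19.2 TPM in TAZ libraries and 30.2 ± 26.1 TPM in WPI libraries and RPS28 26.9 ± 20.03 TPM in TAZ libraries and 37.5 ± 7.53 TPM in WPI libraries. Pseudogenes held 91.8% of the joint TPM of RPL37 and 94.2% of that of RPS26, against 0.057% for RPS28. The low levels of RPL37 and RPS26 thus depend on how reads were assigned between parent and pseudogenes. In all, 10 members had a mean over 1000 TPM, 10 were among the 100 most abundant genes of the annotation, and 21 had a mean under 100 TPM. The steadiest members within groups were RPL7A and RPL21, with SDs of 0.07 and 0.08 on the log2 scale. Pseudogenes held 59.4% of the joint TPM of RPL7A and 93.9% of that of RPL21. With the pseudogenes added, the SDs were 0.12 for RPL7A and 0.36 for RPL21.

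More TPM was assigned to pseudogenes of the family than to the family. The annotation lists 802 genes named as a member followed by P and a number, and 625 of them were above 0 in all 6 libraries. They summed to 45354, 30316 and 29364 TPM in TAZ libraries and 39116, 43897 and 51672 TPM in WPI libraries. As a share of members plus pseudogenes this was 53.2, 50.4 and 51.4% in TAZ libraries and 57.7, 53.6 and 51.0% in WPI libraries, a mean of 51.7% ± 1.44 in TAZ cells and 54.1% ± 3.37 in WPI cells (SD, n = 3 each), with overlap. In 39 members, 26 large and 13 small, the pseudogenes exceeded the parent, and the median share was 44.6%. RPL21, with 56 listed pseudogenes, had 93.9% of the joint TPM on them, and RPS26 had 94.2%. RPL28, RPS13 and RPS25 were among the 8 members with no listed pseudogene.

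Single pseudogenes reached the levels of the most abundant members. RPL39P3 had 3449.8, 2068 and 1870.3 TPM in TAZ libraries and 2886, 3604 and 3699.8 TPM in WPI libraries (-0.51), and RPL41P1 had 2072, 1423 and 1229 TPM in TAZ libraries and 2858, 2481 and 2415 TPM in WPI libraries (-0.75, no overlap). Of 434 pseudogenes tested 0 passed in limma, and 23 had an unadjusted p under 0.05 (5.3%), against 3.21% and 18% of all tested genes. Over the 434 the median log2 difference was 0.18, with 259 above and 175 below 0. The direction differed at high levels: the 64 averaging 100 TPM or more had a median log2 difference of -0.38, and 60 of the 64 lay below 0, beside a median of -0.25 for all genes at that level. StringTie shares out reads that match several loci, so that a value on a pseudogene may be RNA of the parent, and in these files the sources cannot be told apart.

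With each member summed with its pseudogenes, 0 of 81 passed in limma, against 3.4% of all features in that fit. At an unadjusted p under 0.05 there were 6 members. The share of all features at that level is not given here for that fit, and it was 18% in the fit of genes alone. The lowest adjusted p was 0.0503, for RPL23A (-2.06 ± 0.40). RPL32 (-1.13 ± 0.27) was next with 0.0868, RPS9 had 0.0870, and RPL38 (-1.57 ± 0.39) had 0.102. The median over members was -0.25, and 61 of 81 lay below 0. In the fit of genes alone, 10624 of all 19390 tested genes lay below 0. Of the 1296 genes averaging 100 TPM or more, 921 did, with a median of -0.25. The sign differed from that of the gene alone in 17 members, in 15 of them from positive alone to negative with the pseudogenes, RPS19, RPS14 (-0.29) and RPS15A (-0.46) among them. The median within-group SD was 0.39 with the pseudogenes, against 0.49 for the genes alone, and it was smaller in 48 of 74 members with a pseudogene above 0. The 23 tested members with less than 5% of joint TPM on pseudogenes had a median of 0.06 and a median within-group SD of 0.57.

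**Figure D4:**
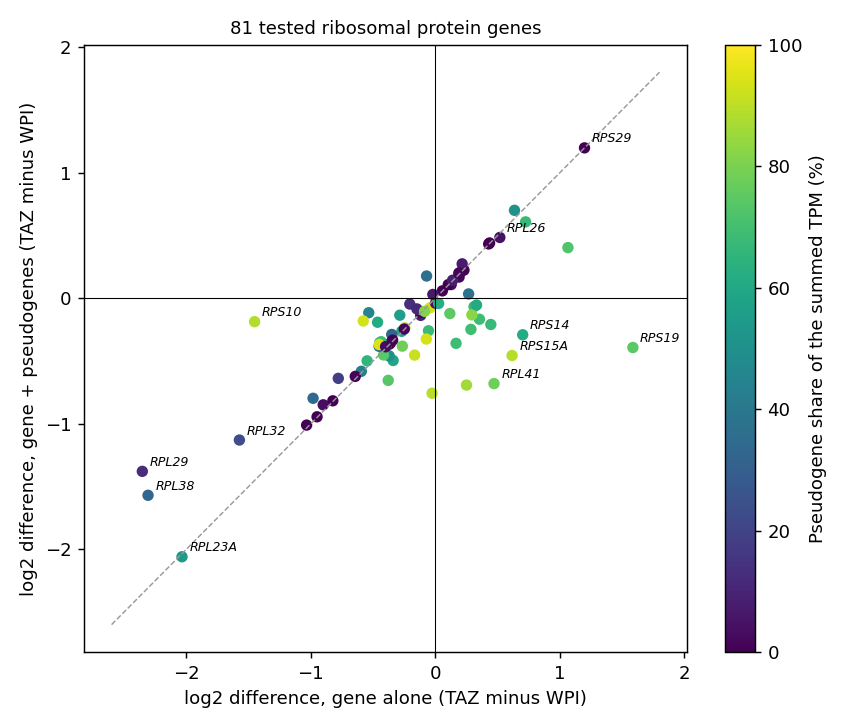
Log2 difference (TAZ minus WPI) of the 81 tested members alone (x axis) and summed with their pseudogenes (y axis), coloured by the pseudogene share of the joint TPM; the dashed line marks equal values. RPS19 lies at 1.59 alone and at -0.39 with its pseudogenes, RPS9 and RPS29 stay on the line, and RPL23A lies near -2 on both axes.

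Below the gene level, the transcript with the largest share of a member's TPM was the same in all 6 libraries for 46 members and varied within a group for 34. In 2 members it differed between the groups and was the same within each, a pattern whose share over all genes was not computed. One of them was RPS19, whose largest transcript was ENST00000598399.1 in TAZ libraries (48.1%, 47.6% and 51.6% of its TPM) and ENST00000598466.1 in WPI libraries (50.9%, 60.8% and 64.3%). In RPS19 the difference sat mostly in ENST00000598399.1, typed as a target of nonsense-mediated decay, with 234, 114 and 138 TPM in TAZ libraries and 6.66, 3.29 and 11.3 TPM in WPI libraries. The protein-coding RPS19 transcript ENST00000598742.1 had 159, 75.3 and 63.3 TPM in TAZ libraries and 33.5, 30.8 and 45.4 TPM in WPI libraries. The retained intron ENST00000598466.1 had 93.6, 50.5 and 66.6 TPM in TAZ libraries and 41.7, 53.0 and 102 TPM in WPI libraries.

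RPL8 held transcripts whose groups did not overlap, as did other members, RPL4, RPL38, RPS9 and RPLP1 among them. The share of such transcripts over all genes is not given here. The protein-coding RPL8 transcript ENST00000528957.1 was at 0 TPM in all 3 TAZ libraries and at 88.8, 409.5 and 388 TPM in WPI libraries, while ENST00000531975.1, typed as nonsense-mediated decay, had 1538, 792 and 774 TPM in TAZ libraries and 610.0, 0 and 0 TPM in WPI libraries. Summed over the members, transcripts typed as nonsense-mediated decay held 5.44%, 6.11% and 4.47% of TPM in TAZ libraries and 3.57%, 1.20% and 0.195% in WPI libraries, without overlap. That rested on the RPL8 and RPS19 transcripts just named: without these 2, the share was 1.04%, 3.18% and 1.22% in TAZ libraries and 1.448%, 1.20% and 0.173% in WPI libraries, with overlap. Retained introns held 30.2% to 36.2% in TAZ libraries and 30.2% to 36.1% in WPI libraries, and protein-coding transcripts held 47.3% to 53.4% in TAZ libraries and 54.2% to 55.6% in WPI libraries, the last of these without overlap. Without RPL8 and RPS19 the protein-coding share was 49.8% to 56.0% in TAZ libraries and 55.97% to 56.5% in WPI libraries, with overlap. These transcripts were chosen after their values were seen, and StringTie divides the reads of 1 gene among overlapping transcripts, so a 0 can be a failed assignment.

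**Figure D5:**
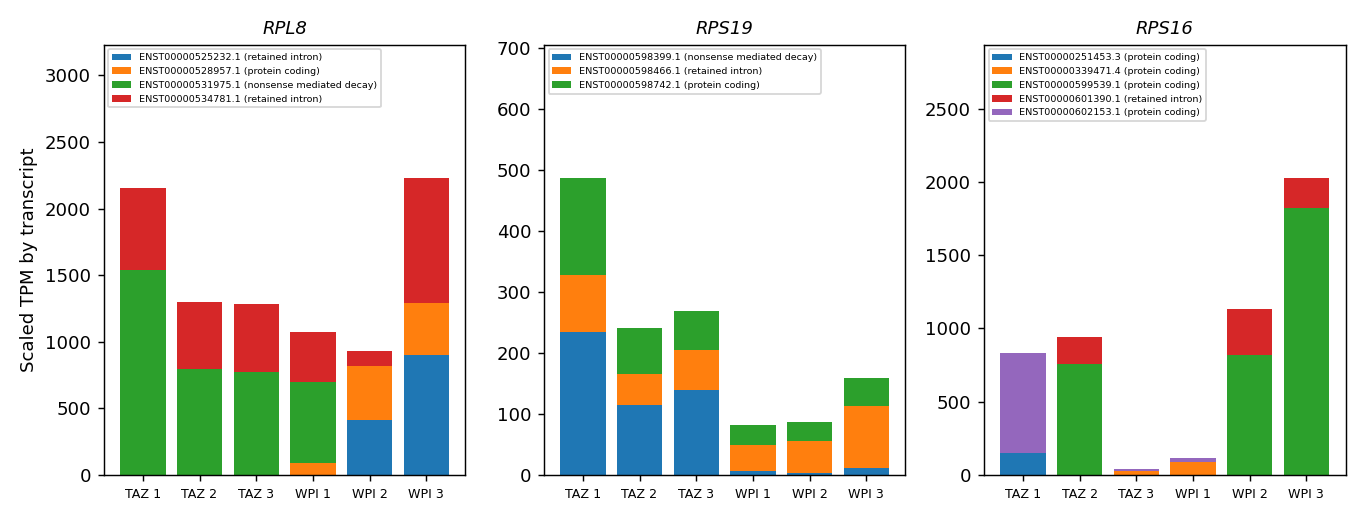
Scaled TPM of RPL8, RPS19 and RPS16 in each library, stacked by annotated transcript (those with at least 30 TPM in a library), TAZ libraries left of WPI libraries. RPL8 holds ENST00000528957.1 in WPI libraries and not in TAZ libraries, and the TAZ excess of RPS19 lies mostly in ENST00000598399.1.

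Of the genes in the lists of regulators, translation factors, chaperones, paralogs and mitochondrial ribosomal proteins, CNBP was the 1 that passed. Of 20 regulators of mRNAs with the tract, CNBP, a zinc-finger protein that binds the start of such mRNAs, was higher in TAZ cells, and 3 of the 20 had an unadjusted p under 0.05 (15%, against 18% of all tested genes). CNBP had 504, 513 and 463 TPM in TAZ libraries and 92.7, 80.6 and 97.6 TPM in WPI libraries, a log2 difference of 2.44 ± 0.16 (SE, n = 3 each; limma adjusted p = 0.000835) that passed under all 20 alternatives run. Of its 10 listed transcripts, ENST00000422453.2 carried the difference, with 412, 400.4 and 389.9 TPM in TAZ libraries and 1.68, 1.09 and 3.72 TPM in WPI libraries. The other main transcript, ENST00000502372.1, had 78.0, 107 and 61.9 TPM in TAZ libraries and 89.5, 68.2 and 80.0 TPM in WPI libraries, which overlap. LARP1 averaged 146 ± 32.3 TPM in TAZ libraries and 122 ± 27.2 TPM in WPI libraries (0.25 ± 0.24, adjusted p = 0.604), and MTOR averaged 10.9 ± 1.27 TPM in TAZ libraries and 12.1 ± 2.93 TPM in WPI libraries (-0.12 ± 0.21, adjusted p = 0.795).

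The translation factors whose mRNAs also begin with the tract did not pass: 0 of 19 in limma, with 1 at an unadjusted p under 0.05 (EIF3L, -0.91) and a median of -0.14. Of 15 chaperones and importers of ribosomal proteins 0 passed, with 1 at an unadjusted p under 0.05 (BCCIP, -0.55) and a median of -0.06. Of 5 paralogs that the naming rule leaves out 0 passed, with 1 at an unadjusted p under 0.05. That was RPL26L1, a paralog of RPL26, with 29.4, 13.0 and 8.99 TPM in TAZ libraries and 7.62, 6.28 and 5.42 TPM in WPI libraries (1.13 ± 0.41, adjusted p = 0.227). RPS27L, a p53-responsive paralog of RPS27, had 14.2, 12.01 and 11.2 TPM in TAZ libraries and 2.20, 10.6 and 8.99 TPM in WPI libraries (0.90 ± 0.48, adjusted p = 0.377), also without overlap. The mitochondrial ribosomal proteins, which build the separate ribosome of mitochondria, had 0 of 77 genes passing, 12 at an unadjusted p under 0.05 (15.6%, against 18% of all tested genes) and a median of -0.30. They were below 0 in 57 of 77, against 48 of 81 cytosolic members; this difference between the families was not tested.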

How the data were processed

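The submitters' processing notes name StringTie 1.3.3b, Bowtie2 2.0.0 and STAR 2.3.0 as tools and hg19 as the genome build. Per the file headers, StringTie estimated annotated transcripts only, 1 run per library. The deposited values are coverage, FPKM and TPM per transcript. The annotation release, the use of strand and the libraries that shared a sequencing chip (2 per chip) are not given in the sources used here. Per the labels, RNA with an integrity number above 8 was poly(A)-enriched, spiked with control RNA and sequenced on an Ion Torrent Proton.

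Deposited TPM was summed per gene identifier and scaled by the median of ratios over 28148 genes above 0 in every library. Log2(scaled TPM + 1) was fitted with limma 3.58.1 (trend and robust, R 4.3.3) over genes averaging 1 TPM or more; the fit was tested on simulated data. Depth is unknown as a read count. Aligned bases were recovered from the ratio of coverage to FPKM. Fold changes on this log2 scale understate the change of low genes. Transcript types came from GENCODE release 29 by identifier without version.

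The text names the 8 members with the largest difference in each direction, the 5 most and 5 least abundant, RPS9 and RPS19, groups by role, and members by pseudogene share; genes with no overlap, transcripts and single pseudogenes were chosen after their values were seen. A few genes are not reported here. The members and lists were chosen with earlier results of these data known.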

Additional observations from a re-analysis of the deposited data

How the results depend on the processing

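The count of 0 ribosomal protein genes passing limma became 2 without scaling (RPS19 among them) and 2 on aligned bases per gene, an alternative chosen after seeing the data (the same 2), and 1 with the most abundant transcript alone (RPS19). It ranged from 0 to 1 when each library was left out, with RPL38 passing without TAZ library 3 and RPS19 without WPI library 3. In both genes the library left out was the one nearest to the other group. The count of 623 genes over all features was 352 with no filter, 317 with a filter at a mean of 10 TPM, and 278 to 774 when each library was left out. With the replicate number as a block it was 236, and 0 members passed. Same-numbered libraries correlated at 0.004, -0.0244 and -0.0549 in their deviations from the group means. These values cannot show whether same-numbered libraries shared a culture or a chip, which the labels do not give.

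The median log2 difference ranged from -0.32 to 0.04 over the family when each library was left out, from -0.31 to -0.01 in the large and from -0.32 to 0.21 in the small subunit. The log2 ratio of large to small ranged from -0.26 to 0.03, and the difference in pseudogene share from -4.00 to -0.67 percentage points.

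Of 17 members and CNBP followed under 20 alternatives, 339 of 360 values kept their direction and side of the threshold. For the 17 members that side was not passing, so the count does not measure how precise their differences are. Direction changed at least once in 8 of the genes followed. Direction reversed with pseudogenes added for RPS19 (-0.39), RPS14 (-0.29) and RPS15A (-0.46), and the same with read-through genes added, where RPS10 was 0.0202. With the most abundant transcript alone, RPL26 was -3.02 and RPS28 0.55. When each library was left out, RPL17 ranged from -0.85 to 2.13, RPS14 from -0.0004 to 1.23, RPS16 from -2.27 to 0.46 and RPS28 from -1.50 to 0.0473. Within the thresholds, RPS19 passed without scaling (1.85), on aligned bases (1.74) and with the most abundant transcript alone (4.40). The cause was not tested. The 3 libraries per group limit the precision, and the division of reads between parents, pseudogenes and overlapping transcripts limits it further.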
